A study of Mus musculus with 11 samples.

Results

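Dnajb4, Dnajb5 and Hspb1 encode chaperones of the cytosol, and the rows named for them are 6 of the 63244 transcript rows of the ribosome-associated RNA counts. The members are 1 row of Dnajb4 (uc008rsq.3), 4 rows of Dnajb5 (uc008som.1, uc008son.1, uc008soo.1 and uc008sop.1) and 1 row that the study's lists give as Hspb1 (uc008tzn.1), whose place in the table goes against that name, as described below. The counts carry UCSC row identifiers without gene symbols, so the Dnajb4 and Dnajb5 rows were named by matching their average abundance to the abundance that the study lists for each transcript, which gives the transcript numbers Dnajb4-202 and Dnajb5-201 to Dnajb5-204. The same match names a further Dnajb4 row, Dnajb4-204 (uc008rsr.3), which is no member and is used for comparison. The animals were CaMKIIα-Cre:RiboTag male mice of 2 to 3 months, in which the CaMKIIα promoter drives Cre and Cre switches on a ribosomal protein, Rpl22, that carries a hemagglutinin tag. All animals of both groups carried both alleles. One group of 6 libraries (SD) came from mice kept awake for 5 h by gentle handling from the start of the light phase. The other group of 5 libraries (NSD) came from mice that were not sleep deprived and were killed at the same time. Hippocampi of 2 mice were pooled in each library and tagged ribosomes were immunoprecipitated (TRAP-Seq), so the animal-to-animal spread is averaged within a library, and a transcript made in larger amount cannot be told apart from one bound by more ribosomes or from a larger share of the cells that make it.

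DnaJ proteins such as Dnajb4 and Dnajb5 carry a J domain, by which they bring unfolded proteins to HSP70 and make it split ATP, the step that closes HSP70 on its client. Small heat shock proteins such as Hspb1 (HSP25 in mice) hold unfolded proteins without ATP until HSP70 takes them over. Genes of these families are classical targets of heat shock factor 1, which binds inverted repeats of GAA, the heat shock element, in their promoters. In neurons the cytosolic chaperones act on newly made and misfolded proteins, and they are separate from the chaperones of the endoplasmic reticulum.

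The sequences that lie before the starts of Dnajb4-202, Dnajb5-201 and Dnajb5-202 are shown because the named transcripts of each gene differ mainly in their first exons in GENCODE. They were read from the RefSeq promoter table (GRCm38.p6), which holds windows for all 3 genes, and only bases outside the exons of the gene in GENCODE vM21 are printed. Capitals mark 2-unit heat shock elements (GAANNTTC or TTCNNGAA, each of which reads the same on both strands) and the CCAAT box on either strand (CCAAT or ATTGG), 2 motifs chosen after the sequences were seen. Dnajb4-202 is preceded by chr3:152193846-152194095 (minus strand), Dnajb5-201 by chr4:42949617-42949813 (plus strand) and Dnajb5-202 by chr4:42950146-42950350 (plus strand).
Dnajb4-202: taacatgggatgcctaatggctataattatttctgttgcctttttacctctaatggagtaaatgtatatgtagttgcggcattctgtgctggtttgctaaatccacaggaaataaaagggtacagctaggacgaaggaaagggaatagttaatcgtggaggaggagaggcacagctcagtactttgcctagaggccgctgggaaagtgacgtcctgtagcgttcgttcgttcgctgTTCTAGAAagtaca
Dnajb5-201: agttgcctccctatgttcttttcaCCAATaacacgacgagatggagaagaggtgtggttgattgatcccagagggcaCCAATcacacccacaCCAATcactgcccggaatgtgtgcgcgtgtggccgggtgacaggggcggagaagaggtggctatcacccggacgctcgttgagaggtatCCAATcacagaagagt
Dnajb5-202: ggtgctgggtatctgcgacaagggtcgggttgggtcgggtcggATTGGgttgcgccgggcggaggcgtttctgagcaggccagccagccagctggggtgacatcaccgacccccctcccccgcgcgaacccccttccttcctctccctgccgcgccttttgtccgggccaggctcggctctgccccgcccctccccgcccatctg

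The start of Dnajb4-202 has 1 heat shock element of 2 units, TTCTAGAA, which begins 14 bases before the start. No such element was in the window of Dnajb4-204 or in any of the 3 windows of Dnajb5, while the window of Hspb1 holds 2, both GAANNTTC, 117 and 97 bases before its start. Of all 32851 mouse promoter windows, 8.52% hold TTCNNGAA, 7.86% hold GAANNTTC and 15.1% hold either, while 0.603% hold a run of 3 units, which none of these windows has. The stretch before Dnajb5-201, which also precedes the start of Dnajb5-203 53 bases further on, holds 4 CCAAT boxes on its own strand, and 1.06% of all windows hold at least 4 on either strand. The full window of Dnajb5-202 holds 2 copies, which 11.7% of all windows reach, and the stretch printed is richer in G and C (71.2%) than those before Dnajb5-201 (54.8%) and Dnajb4-202 (44.4%). A match of letters is a description of the sequence only.

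In GENCODE vM21 (GRCm38), Dnajb4 lies on chromosome 3 from 152178511 to 152210302 on the minus strand, and Dnajb5 on chromosome 4 from 42949814 to 42959425 on the plus strand. Dnajb4-202 and Dnajb4-204 code for the same 337 amino acids and have all coding bases in common. They differ in the first exon: that of Dnajb4-204 (152209835 to 152210083) is a separate untranslated exon far upstream, and that of Dnajb4-202 (152193377 to 152193845) begins inside the intron of Dnajb4-204 and runs into its second exon. Dnajb5-201 codes for 382 amino acids and Dnajb5-202, Dnajb5-203 and Dnajb5-204 for 348, because the second exon of Dnajb5-201 (42950799 to 42950943), which no other named Dnajb5 transcript has, holds its start codon and 68 coding bases, which with the first bases of the third exon add 34 codons at the amino end. The first exon of Dnajb5-202 (42950396 to 42950742) is its own, that of Dnajb5-204 has 47 bases of its own, and the exons that follow are shared.

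**Figure D1:**
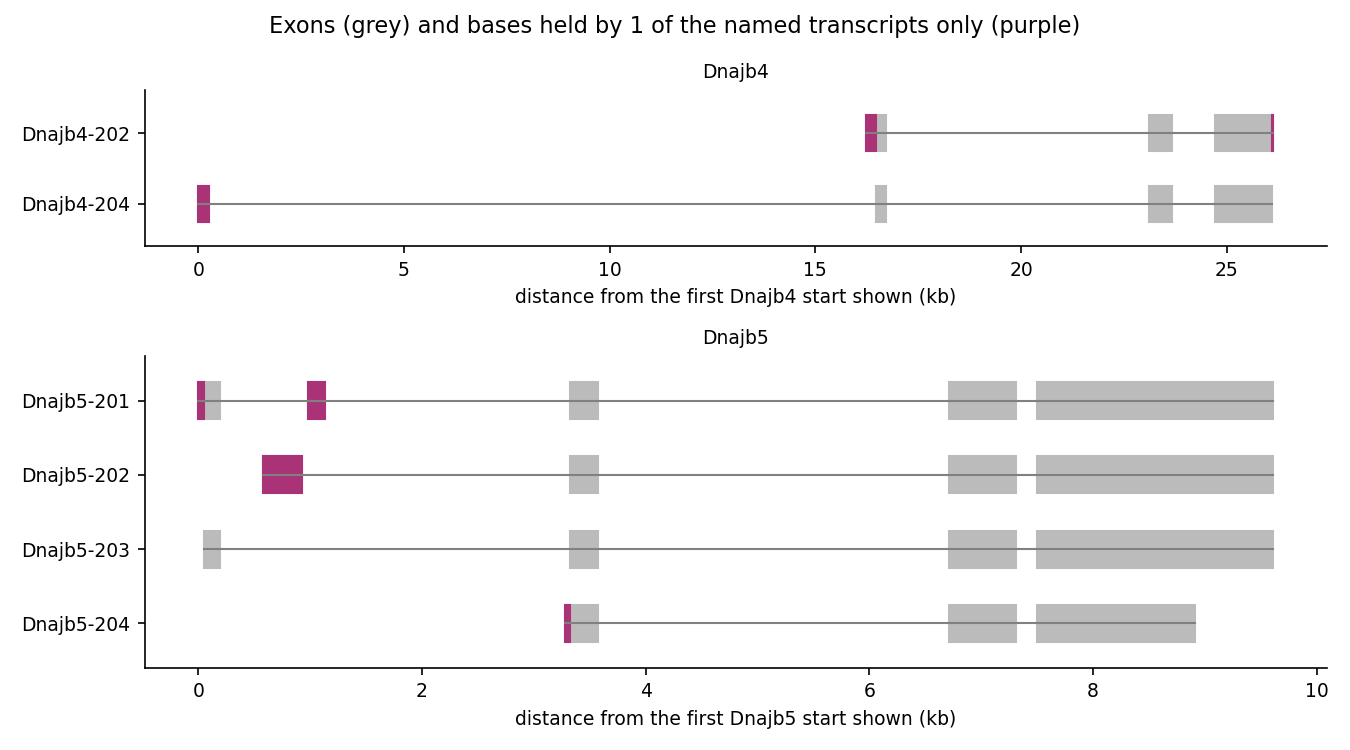
Exons of the named transcripts of Dnajb4 and Dnajb5 from GENCODE vM21, along the distance in kb from the first start shown in each gene, in the direction of transcription. Grey boxes are exons, and purple boxes are the bases that no other named transcript of the gene holds, which lie almost all in first exons and in the second exon of Dnajb5-201.

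This structure sets what the counts measure. A read that could belong to several rows was left uncounted. A row therefore counts reads that touch a base belonging to it alone, or whose bases together belong to no other row. For these rows the bases held alone lie mostly near the start of the transcript. By GENCODE, 254 bases of Dnajb4-202 (227 in the first exon and 27 at the end of the last), 249 of Dnajb4-204, 198 of Dnajb5-201, 347 of Dnajb5-202 and 47 of Dnajb5-204 belong to that named transcript alone, and none of Dnajb5-203. Dnajb5-203 nevertheless received 18 to 33 counts per library, so the UCSC models that were counted differ from the GENCODE models drawn here. In the table the rows run Dnajb5-204, Dnajb5-202, Dnajb5-201 and Dnajb5-203, which is not the order of the GENCODE starts. The UCSC models were not used here, so what a counted row codes for was not tested. Values are therefore compared between groups within a row, or as ratios within a library, but not as levels between rows.

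The row listed as Hspb1 went against its name. GENCODE puts Hspb1 on chromosome 5, from 135887919 to 135889563. The rows of the count table follow the genome, and the nearest named rows on either side of uc008tzn.1 are Tceanc2, 6 rows before, and Magoh, 21 rows after, both on chromosome 4. Of 2020 named rows whose nearest named rows of other genes on both sides lie on 1 chromosome, 2017 (99.9%) lie on that chromosome too, the Dnajb4 and Dnajb5 rows among them, and uc008tzn.1 is 1 of 3 that do not. The name also rests on the listed fold change alone. Between Tceanc2 and Magoh GENCODE has several genes, among them Hspb11 (107253593 to 107279938), a gene of intraflagellar transport with a similar symbol, and which of them the row belongs to was not tested. It is called the row listed as Hspb1 below, its values are given for completeness, and nothing is drawn from it about Hspb1.

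Per library, 22074914 to 29549339 reads were counted on transcripts, which were 22.8% to 31.9% of the reads tallied. The share of reads outside annotated transcripts ranged from 9.97% to 27.6%. The first principal component, which held 58.9% of the variance of log2 CPM, followed that share: 4 libraries above 15% (NSD replicates 2 and 4, SD replicates 1 and 3) scored -48.3 to -25.4, NSD replicate B and SD replicate D, at 14.5% and 14.1%, scored -6.00 and -3.99, and the other 5 scored 22.8 to 41.8. NSD replicate 2 also had 12.3% of its reads aligned to several places, against 5.88% to 6.23% in the others. Levels below are CPM (counts scaled to a common library size) with upper-quartile factors, and SD replicate 1 had the largest ratio of scaled to counted size, 29436581 to 24677155. Of the marker lists, 2 of 6 genes of inhibitory neurons had a named row, Gad2 and Slc32a1, and the summed level of their 4 rows was 22.3 to 101 CPM in NSD and 14.9 to 46.8 CPM in SD, with log2 fold changes of -1.90 to -0.64 and FDR of 0.0989 to 0.613 after filterByExpr. For excitatory neurons Camk2a and Neurod2 were named (summed 304 to 389 CPM in NSD and 284 to 454 CPM in SD, nearly all of it Neurod2, since the named Camk2a row had means of 2.51 and 1.89 CPM with no overlap, a log2 fold change of -0.41 and an FDR of 0.265 after filterByExpr, and Neurod2 a log2 fold change of 0.20), for oligodendrocytes Mbp (167 to 195 CPM and 178 to 230 CPM, log2 fold change 0.21, FDR 0.9999 in the main test and 0.0209 after filterByExpr, the setting that also called Dnajb4-202 and Dnajb5-201), and for astrocytes, microglia and endothelium no gene. The part of these other cell types in the values below was not tested.

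Dnajb5-201, matched by number to the GENCODE transcript with the longer amino end, was counted higher in every SD library than in any NSD library. Its CPM was 8.19, 9.33, 8.34, 9.30 and 9.03 in NSD replicates 2, 3, 4, 5 and B. In SD the lowest library (replicate 1) had 10.3 CPM, the median was 11.5 CPM and the highest (replicate 4) had 13.6 CPM. The groups did not overlap, which 0.459% of all 29599 transcripts tested showed in the same direction. The group means were 8.84 ± 0.539 CPM (SD of the replicates, n = 5) and 11.7 ± 1.15 CPM (n = 6), a ratio of 1.33. Between libraries the CPM of NSD varied by 6.09% (coefficient of variation) and counting error alone, at 198 to 222 counts per library, gives 6.84%. In SD the variation was 9.82%, above the counting error of 5.68% at 291 to 339 counts. The difference had p = 0.00433 in an exact permutation test (two-sided, over every assignment of the 11 libraries to groups of 5 and 6). In edgeR's quasi-likelihood test the log2 fold change was 0.41 ± 0.10 (SE; 95% interval 0.19 to 0.63) and the FDR 0.293 over all transcripts tested. It therefore did not pass FDR 0.05 in the main test. It passed with DESeq2 (FDR 0.0128) and when edgeR's filterByExpr removed weakly counted transcripts before the same test (FDR 0.0157).

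Dnajb4-202, whose protein is one of several J-domain partners of HSP70 in the cytosol, had CPM of 8.65, 10.2, 9.74, 10.3 and 10.2 in NSD replicates 2, 3, 4, 5 and B. In SD it had 9.89 CPM in replicate 1, and in the other 5 libraries 12.8 to 14.3 CPM. Only SD replicate 1 lay within the range of NSD, and the other 5 SD libraries lay above every NSD library. The means were 9.82 ± 0.692 CPM in NSD and 12.8 ± 1.53 CPM in SD, a ratio of 1.31 (exact permutation p = 0.0108, two-sided). The log2 fold change was 0.38 ± 0.11 (95% interval 0.15 to 0.61) and the FDR 0.445 in the quasi-likelihood test. As for Dnajb5-201, the call depended on the filter and the tool, with an FDR of 0.0284 after filterByExpr and 0.041 with DESeq2. Without SD replicate 1 the FDR in the main test was 0.049, and the log2 fold change 0.44.

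**Figure D2:**
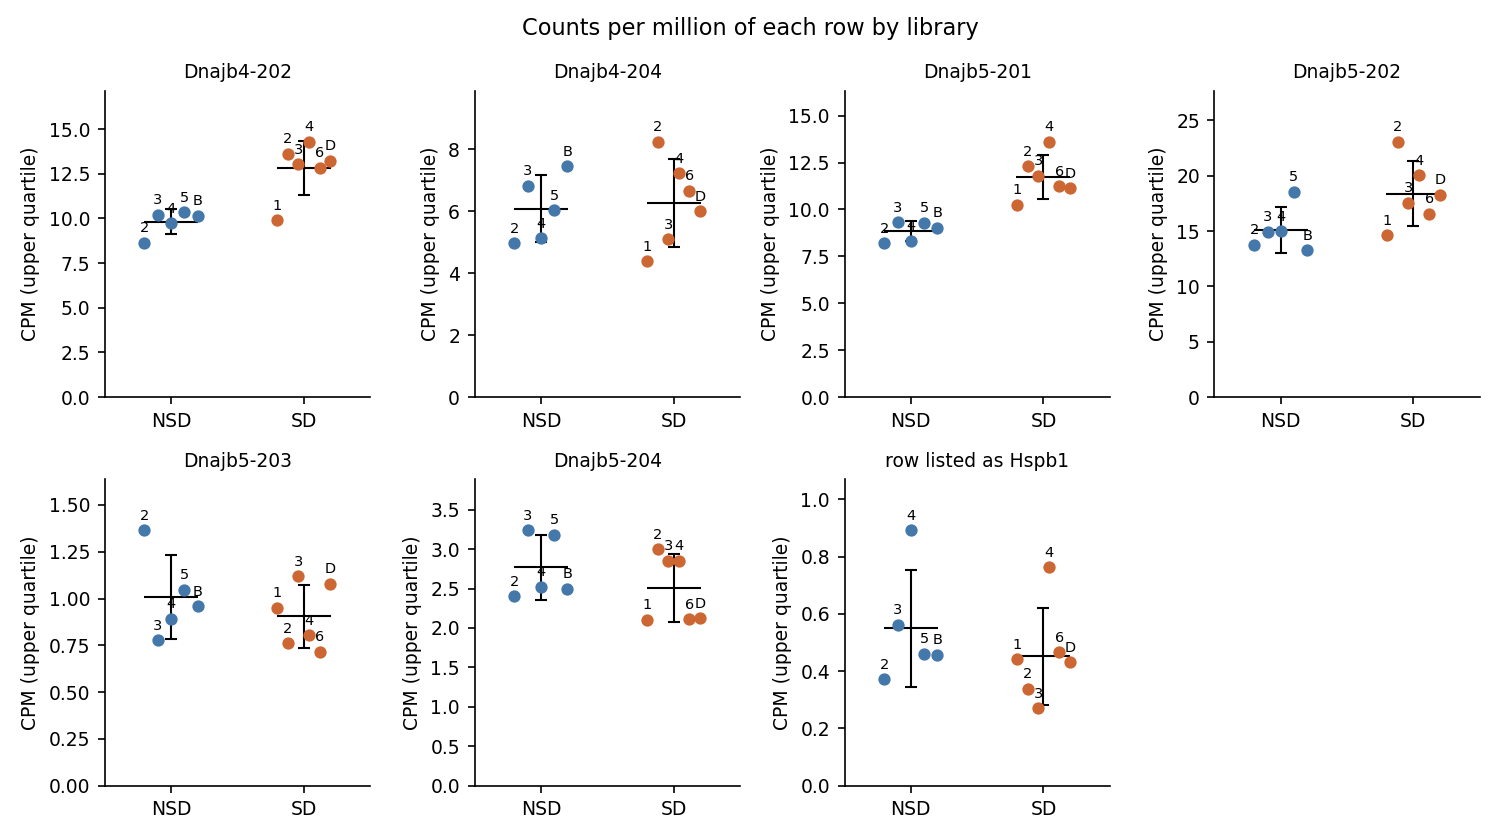
CPM (upper-quartile factors) of each row in the 5 NSD and 6 SD libraries, 1 panel per row, each point a library marked with its replicate label and each bar the group mean with the SD. Dnajb5-201 has no overlap between the groups (highest NSD library 9.33, lowest SD library 10.3), Dnajb4-202 overlaps through SD replicate 1 alone, and the other rows overlap widely.

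In the main test 0 of the 6 member rows passed FDR 0.05, where 0.0507% of all transcripts did (15 of 29599). At an unadjusted p under 0.05 there were 3 member rows (Dnajb4-202, Dnajb5-201 and Dnajb5-202), and 4.45% of all transcripts. All 3 were named from the study's list of transcripts with small p-values, of whose named rows 43.7% were under 0.05, and the other 3 member rows were not. With filterByExpr 2 of the 6 passed FDR 0.05, both higher, where 0.993% of the 19228 transcripts kept did, and DESeq2 called the same 2 rows. TMM factors, the likelihood ratio test and limma voom with sample quality weights called none.

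The scaling of SD replicate 1 moved the Dnajb4-202 values. With TMM factors the CPM of Dnajb4-202 in that library was 10.8 and the highest NSD library had 10.2. On the plain transcript total the same libraries stood at 11.8 and 10.9, so the groups did not overlap on either scale, and the exact permutation p was 0.00433 and 0.00216, the latter the smallest that these assignments give. The share of all transcripts without overlap was computed with upper-quartile factors only, not on these scales. Dnajb5-201 did not overlap on any of the 3 scales, with ratios of group means of 1.33, 1.31 and 1.31. Set apart by their share of reads outside transcripts, the 4 libraries above 15% had Dnajb5-201 at 8.19 and 8.34 CPM in NSD against 10.3 and 11.8 in SD, and the 7 libraries below had 9.03 to 9.33 against 11.1 to 13.6. Dnajb4-202 likewise had no overlap within either set, at 8.65 and 9.74 against 9.89 and 13.0 CPM, and 10.2 to 10.3 against 12.8 to 14.3 CPM. The share of all transcripts without overlap was not computed within these sets, 1 of which holds only 2 libraries per group. When the assignments were made within these 2 sets, an alternative added after the data were seen, the exact permutation p was 0.00476 for both rows, the smallest that the 210 assignments allow. With the sets parted at 12% instead, where the principal component had its widest gap (6 and 5 libraries, also added after the data were seen), Dnajb5-201 had an exact permutation p of 0.005, the smallest of 200 assignments, and Dnajb4-202 of 0.01, with SD replicate 1 (9.89 CPM) inside the NSD range of its set (8.65 to 10.2).

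**Figure D3:**
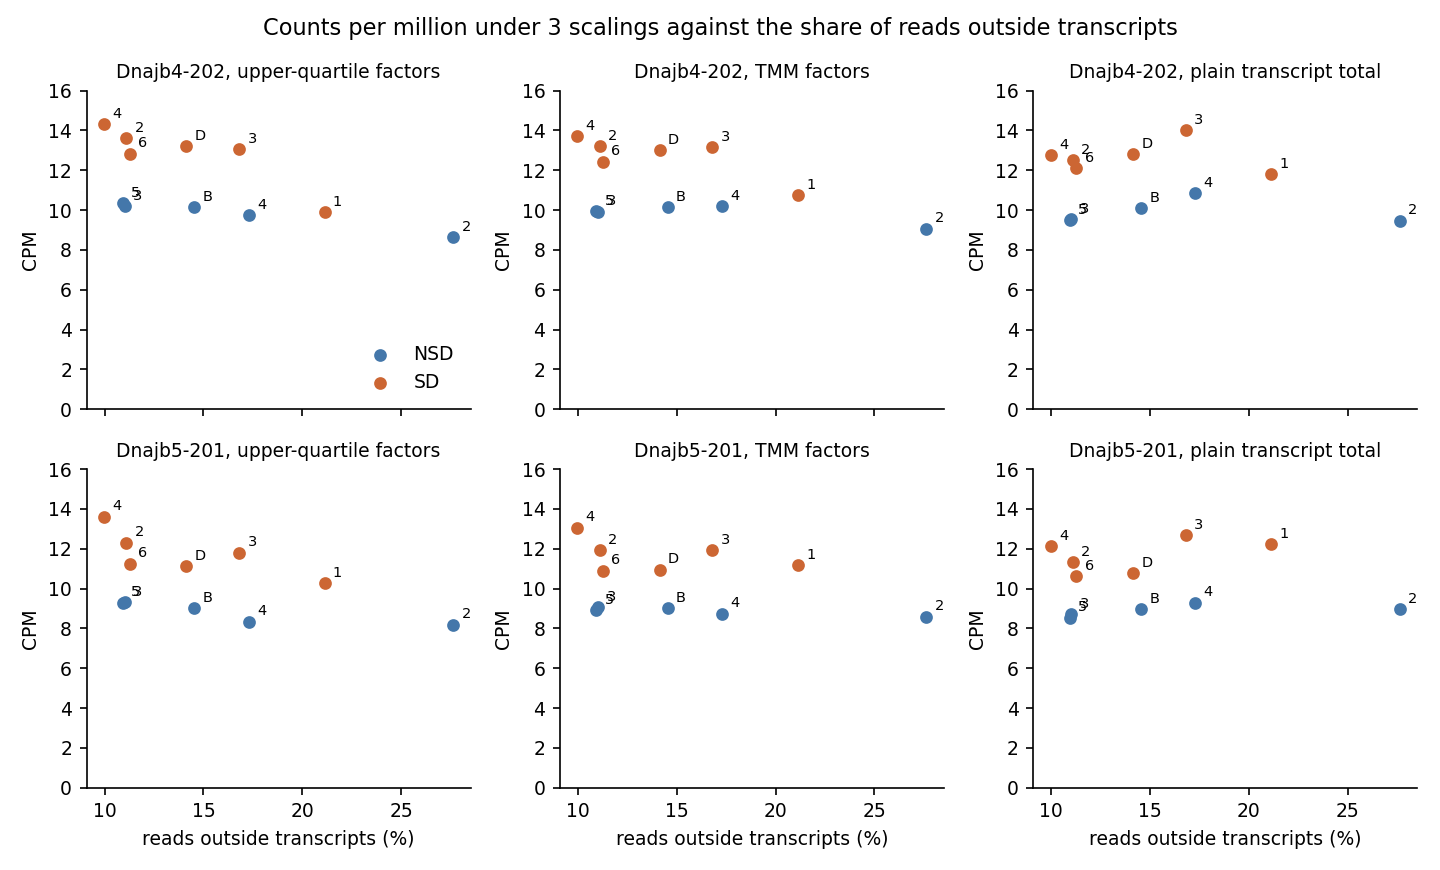
CPM of Dnajb4-202 (top) and Dnajb5-201 (bottom) in each library, marked with its replicate label, against the percentage of reads outside annotated transcripts, with upper-quartile factors, TMM factors or the plain transcript total as the scale. Dnajb4-202 in SD replicate 1 is at 9.89, 10.8 and 11.8 CPM on the 3 scales, and Dnajb5-201 separates the groups on all of them.

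The remaining Dnajb5 rows carry the numbers of GENCODE transcripts that code for the shorter protein. Dnajb5-202, which has its own first exon in GENCODE, had 13.3 to 18.6 CPM in NSD (median 14.95) and 14.6 to 23.1 CPM in SD (median 17.9). Its groups overlapped, the log2 fold change was 0.28 ± 0.12 (95% interval 0.03 to 0.53) and the FDR 0.9999 in the quasi-likelihood test, with an exact permutation p of 0.0671. The exact permutation p was 0.0281 on the plain transcript total, 0.0368 with TMM factors, 0.0286 without NSD replicate 5 and 0.0317 without SD replicate 1. Dnajb5-203 and Dnajb5-204 had values in the other direction that did not pass any test. Dnajb5-204 had 2.77 ± 0.408 CPM in NSD and 2.51 ± 0.436 CPM in SD (log2 fold change -0.14, 95% interval -0.51 to 0.22), and without 1 library the value ran from -0.21 (SD replicate 2 left out) to -0.089 (NSD replicate 3). In the 6 libraries of shared replicate number its direction turned, to 0.10 with the replicate block and 0.093 without it. Dnajb5-203, with 18 to 33 counts in NSD and 18 to 30 in SD, had 1.01 ± 0.223 and 0.905 ± 0.17 CPM (log2 fold change -0.15, 95% interval -0.64 to 0.33), and the value was -0.031 without NSD replicate 2 and -0.24 without NSD replicate 3. Dnajb4-204, which has the upstream exon in GENCODE, had 6.08 ± 1.07 CPM in NSD and 6.27 ± 1.41 CPM in SD (log2 fold change 0.04, 95% interval -0.30 to 0.39), and its sign changed between settings.

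Whether the transcripts of 1 gene changed unequally was asked of ratios within each library, which do not depend on the scaling. The ratio of Dnajb5-201 to Dnajb5-204 counts rose from 2.88 to 3.62 in the 5 NSD libraries to 4.10 to 5.32 in the 6 SD libraries, with no overlap. The mean log2 ratio differed by 0.55 (95% interval 0.34 to 0.77, exact permutation p = 0.00216, adjusted p = 0.013 over the 6 pairs of Dnajb5 rows). The ratio of Dnajb5-202 to Dnajb5-204 rose as well, from 4.61 to 5.95 in NSD to 6.15 to 8.63 in SD, with a difference of 0.42 (95% interval 0.22 to 0.64, exact permutation p = 0.00433, adjusted p = 0.013). Dnajb5-204 made up 9.96% ± 0.864 of the counts on the 4 rows in NSD and 7.47% ± 0.713 in SD, and its share did not overlap between the groups (9.32% to 11.4% and 6.50% to 8.56%). By GENCODE the bases of Dnajb5-204 alone (42953094 to 42953140) are intron in the other named Dnajb5 transcripts, directly before an exon they share. The first exon of Dnajb5-202 and the second of Dnajb5-201 also lie in introns of other named transcripts. Unspliced RNA could be counted on these rows, and its part in the ratios was not tested.

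The other 4 pairs did not pass in the main test. Dnajb5-201 against Dnajb5-202, the most counted pair, differed by 0.13 (95% interval -0.09 to 0.33, adjusted p = 0.262 by the exact permutation test). A relative change of the row Dnajb5-201 against Dnajb5-202 was therefore not shown, and one above 0.33 on the log2 scale lies outside the interval. Dnajb5-201 against Dnajb5-203 differed by 0.55 and Dnajb5-202 against Dnajb5-203 by 0.43, with adjusted exact permutation p of 0.0649 and 0.153 at the low counts of Dnajb5-203. The former pair passed without NSD replicate 3 (adjusted exact permutation p = 0.0381), without SD replicate D (0.0476) and with a prior count of 2 (0.0433). With assignments within the sets parted at 12%, both pairs passed (adjusted exact permutation p = 0.01 and 0.0375). Dnajb5-203 against Dnajb5-204 differed by -0.0017, with an interval from -0.56 to 0.55. In edgeR's diffSpliceDGE, over the 54 genes whose transcripts the study lists, Dnajb5 had a gene p of 0.0153 and an FDR of 0.0686, and Dnajb4 a p of 0.101 and an FDR of 0.255, where 11 of the 54 genes passed FDR 0.05. Against the rest of the gene none of the Dnajb5 and Dnajb4 rows passed there, with an FDR of 0.488 for Dnajb5-204 and 0.939 for Dnajb5-201. The study listed these genes for their values in the same samples, so the unequal change of their rows is no independent evidence.

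For Dnajb4, the count ratio of Dnajb4-202 to Dnajb4-204 was 1.36 to 1.90 in NSD and 1.65 to 2.56 in SD, with overlap. The mean log2 ratio differed by 0.35 (95% interval 0.07 to 0.63), and the exact permutation p of 0.026 belongs to a pair that was added after the values were seen. The test was not passed in the numbered libraries only (exact permutation p = 0.103), nor when NSD replicate 3 or B or SD replicate 1, 3 or D was left out (exact permutation p = 0.0524 to 0.0619). SD replicate 2 had the lowest ratio of its group and SD replicate 3 the highest. Summed over its named rows, Dnajb4 had a log2 fold change of 0.26 and Dnajb5 of 0.27, with FDR of 1 and 0.895 in the quasi-likelihood test.

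**Figure D4:**
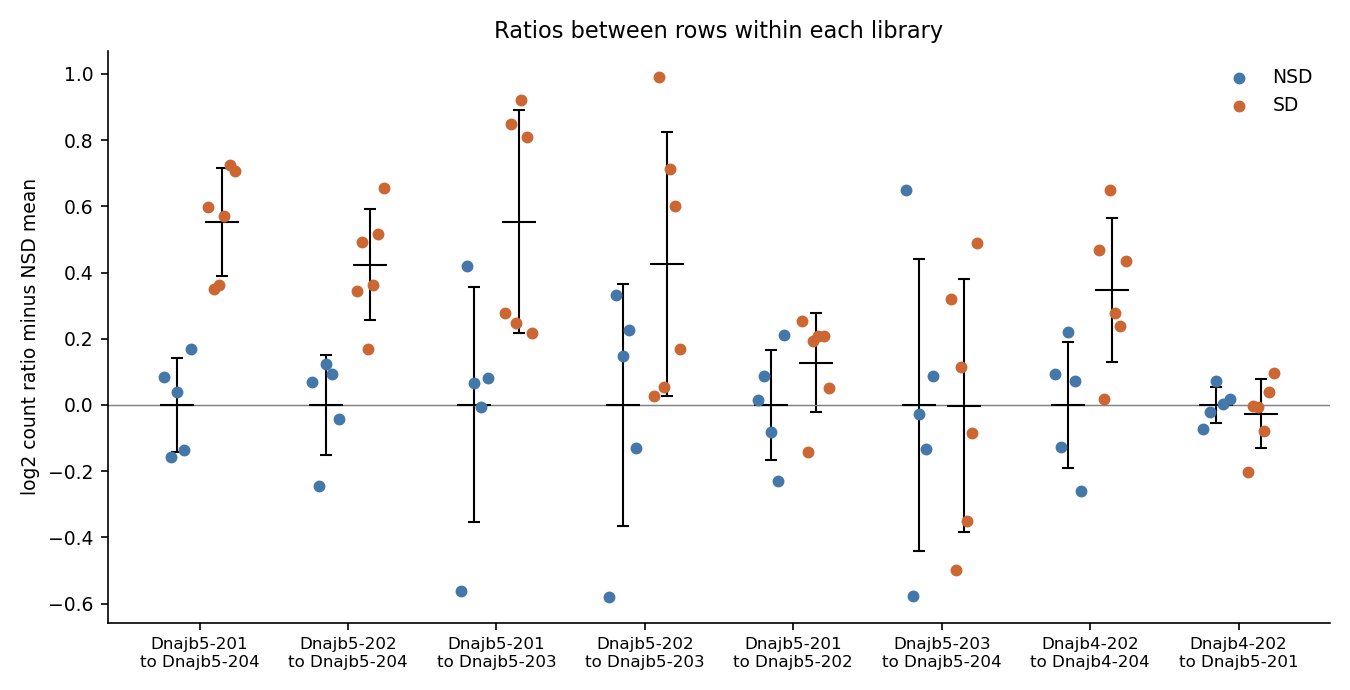
Log2 ratio of the counts of 2 rows in each library, minus its NSD mean, for the 6 pairs of Dnajb5 rows, the 2 Dnajb4 rows, and Dnajb4-202 against Dnajb5-201. Points are libraries, bars the group mean with the SD. The 2 pairs at the left differ by 0.55 and 0.42 with no overlap, and the last pair by -0.03.

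No difference between Dnajb4-202 and Dnajb5-201 in their SD values was detected. Their count ratio was 1.06 to 1.17 in NSD and 0.964 to 1.19 in SD, and the mean log2 ratio differed by -0.03 (95% interval -0.14 to 0.08, exact permutation p = 0.662). The interval leaves room for a difference of up to 0.14 on the log2 scale. By their deviations from the group means over the 11 libraries, the transcripts most like Dnajb4-202 among 1999 named ones with at least 10 counts in every library were Snx7 (Pearson r = 0.955), 2610034B18Rik (0.955) and Pik3r1 (0.947), and for Dnajb5-201 they were Dcdc2a (0.972), Gpr63 (0.965) and Mfsd8 (0.942). All of these points share the libraries and their scaling factors.

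The row listed as Hspb1 was counted 9, 13, 23, 11 and 11 times in NSD replicates 2, 3, 4, 5 and B, and 7 to 19 times in SD (13, 8, 7, 19, 13 and 12 in replicates 1, 2, 3, 4, 6 and D). The groups overlapped, with single high libraries in each. The summed counts of 67 in NSD and 72 in SD correspond to 0.554 CPM (exact Poisson 95% interval 0.429 to 0.703) and 0.451 CPM (0.353 to 0.568), intervals that cover counting error only. The log2 fold change was -0.28 ± 0.32 (95% interval -0.96 to 0.39) and the exact permutation p 0.418, so no change of this row was detected. The value was -0.043 without NSD replicate 4 and -0.49 without SD replicate 4. Its ratios to Dnajb4-202 and Dnajb5-201 differed between the groups by 0.66 and 0.69 on the log2 scale, each with an adjusted exact permutation p of 0.0649 over 3 pairs (0.039 with a prior count of 2). The most similar transcripts by deviations were Mafa (0.746), Armcx6 (0.724) and Cyld (0.703), at counts too low for such a correlation to be a finding.

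The other cytosolic chaperones were taken from a list of 57 genes, of which 15 had a named row. Outside the rows above there were 14 named rows, of which 13 come from the study's list of transcripts with small p-values, so these rows are no random draw. All 14 had a log2 fold change above 0, with a median of 0.23, while 56.7% of the transcripts named from that list and 52% of all transcripts tested were above 0 (medians 0.15 and 0.01). None passed FDR 0.05 in the quasi-likelihood test, 6 (42.9%) had an unadjusted p under 0.05, against 43.7% of the transcripts named from the study's list, and 1 passed with filterByExpr and with DESeq2.

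That row was Chordc1, a partner of HSP90 with zinc-binding CHORD domains, with 201 ± 16.9 CPM in NSD and 258 ± 26.5 CPM in SD (log2 fold change 0.37 ± 0.10, FDR 0.315 in the quasi-likelihood test, 0.00269 with filterByExpr and 0.00169 with DESeq2). Among the J-domain proteins, Dnajc21, a factor of ribosome maturation, had 31.2 ± 2.51 and 38.8 ± 3.82 CPM with no overlap (log2 fold change 0.31, FDR 0.456), its second row 1.60 and 1.63 CPM, and Dnaja4 3.89 and 4.85 CPM. In the HSP70 group, Hspa8, the constitutive HSP70 of the cytosol, had 79.4 ± 8.83 and 92.5 ± 9.17 CPM (log2 fold change 0.22, FDR 0.9999), Hspa1b, a heat-inducible HSP70, 31.3 and 36.0 CPM, and Bag3, a nucleotide exchange factor that links HSP70 to autophagy, 8.03 and 9.52 CPM. Among the cochaperones of HSP90, log2 fold changes ran from 0.12 for Cdc37l1 to 0.64 for the weaker Fkbp5 row, the latter at 0.415 and 0.648 CPM. Stip1, which joins HSP70 and HSP90, stood at 0.18, Fkbp4 at 0.14, Ppid at 0.14, St13 at 0.37 and the stronger Fkbp5 row at 0.40. No chaperonin subunit and neither Hsf1 nor Hsf2 had a named row.

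**Figure D5:**
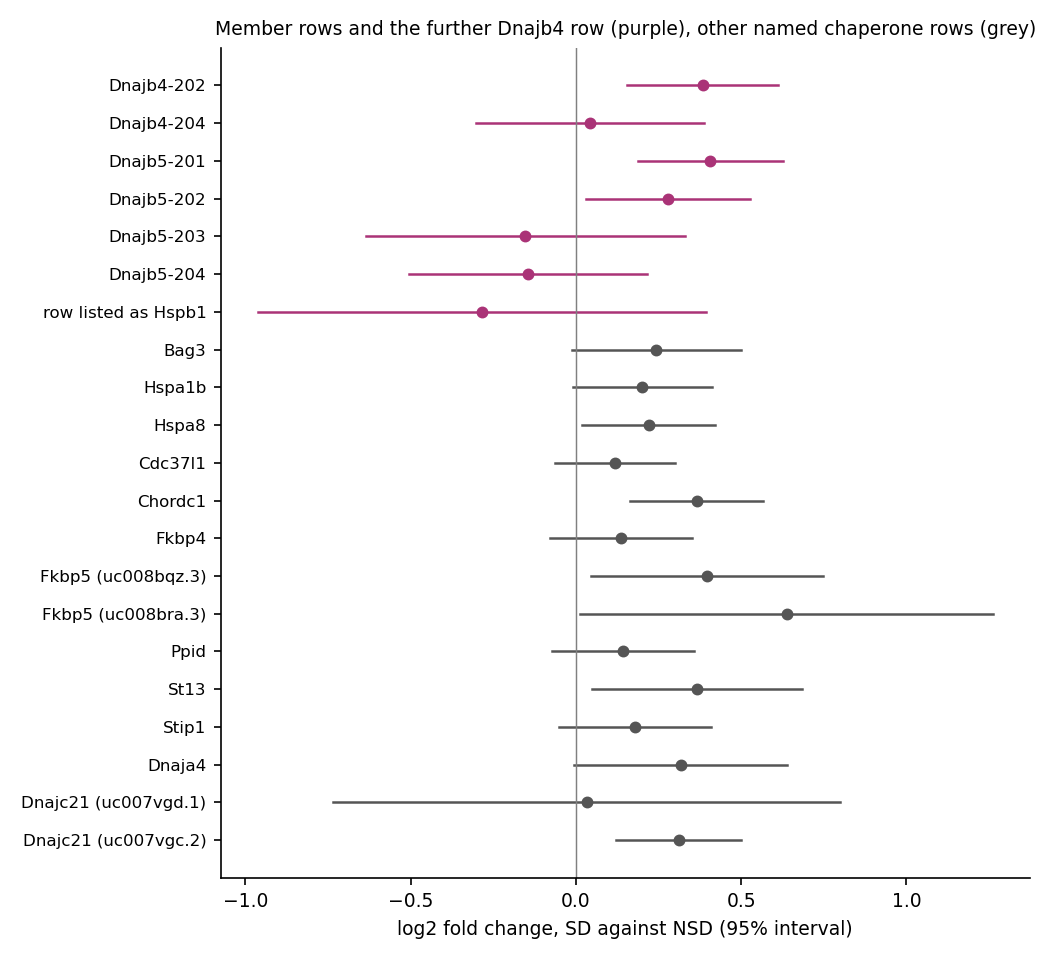
Log2 fold change of SD against NSD with its 95% interval from edgeR's quasi-likelihood fit, for the 6 member rows and Dnajb4-204 (purple) and the 14 other named cytosolic chaperone rows (grey). All 14 grey points lie above 0, from 0.03 to 0.64, and the purple points run from -0.28 for the row listed as Hspb1 to 0.41 for Dnajb5-201.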

How the data were processed

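Ribosome-associated RNA of 11 libraries (5 NSD, 6 SD, from the labels) was analysed. The authors trimmed reads with Trimmomatic 0.36, aligned them to mm10 with STAR 2.7.5, counted them per UCSC transcript with HTSeq (mode intersection-nonempty), and deposited raw counts. The strand setting and the transcript models are not given in the sources used here. Rows were named by the abundance that the study lists (an edgeR fit of all rows with filterByExpr and TMM factors), and the row listed as Hspb1 and others of 2 further lists by fold change. The members and gene lists were chosen with earlier results of these data known. The named genes are the member rows, the further Dnajb4 row, every list gene with a named row, and the 3 most similar transcripts per member.

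The 5 HTSeq tallies were left out, transcripts counted in 5 or more libraries (minimum count 1) were kept (29599), and SD was compared with NSD by edgeR 4.0.16 (quasi-likelihood, upper-quartile factors, Benjamini-Hochberg, FDR 0.05; R 4.3.3). Single values and log2 ratios (prior count 0.5) had two-sided exact permutation tests, whose intervals hold the shifts not rejected. Nothing says whether libraries share a day or litter, so p-values measure the spread between libraries. The scripts were tested on simulated data. Alternatives were TMM factors, DESeq2 1.42.0, limma 3.58.1 voom, other filters and covariates, the replicate block, summed counts, and each library left out.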

Additional observations from a re-analysis of the deposited data

Results flagged for a closer look

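The CPM of Dnajb4-202 in SD replicate 1 was 9.89, while the other 5 SD libraries had 12.8 to 14.3. The gap to the nearest library was 0.668 of the range of the group, above Dixon's critical value of 0.625 for 6 samples. This was 1 of 14 groups of libraries examined (7 rows in 2 groups), and chance flags about 1 group in 20. The library had 21.1% of its reads outside annotated transcripts, the highest share in SD, and its upper-quartile factor raised its scaled size from 24677155 to 29436581 reads, as given in the report together with the values on 2 other scales.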

How the results depend on the processing

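The number of the 6 member rows past FDR 0.05, 0 in the main test, was 2 with filterByExpr, 2 with a minimum of 10 counts per library and 2 with DESeq2, each time Dnajb4-202 and Dnajb5-201. The first 2 of these settings test fewer transcripts. Leaving out 1 library in turn gave 0 to 1, the 1 without SD replicate 1 (Dnajb4-202). Calls over all transcripts ran from 0 without SD replicate D to 78 without SD replicate 1, against 15 in the main test, and were 62 with TMM factors, 65 with the likelihood ratio test, 58 with voom, 33 with 1 count in 1 library, 8 with the label series as a covariate, 7 with summed counts, 135 with DESeq2, 191 with filterByExpr, 311 with a minimum of 10 counts per library and 167 with the share of reads outside transcripts as a covariate, a setting added after the data were seen, under which Dnajb5-201 had an FDR of 0.0528 and Dnajb4-202 of 0.108. The log2 fold change of Dnajb4-202 stayed between 0.33 and 0.52 and that of Dnajb5-201 between 0.36 and 0.54 over the 22 settings.

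The 2 rows and 2 Dnajb5 pairs past their permutation tests passed in each of the 16 and 17 settings run, and Dnajb5-202 and the pair Dnajb5-201 and Dnajb5-203 also passed in the settings named in the report. TMM factors and the plain transcript total cannot change a ratio within a library. For the pairs these settings therefore repeat the main test. The number of Dnajb5 pairs that passed was 4 with assignments within the sets of libraries parted at 12% (added after the data were seen), against 2 in the main test. The number of pairs between genes past an adjusted p of 0.05, 0 in the main test, was 0 to 2 when 1 library was left out, and 2 without SD replicate 1, without SD replicate 4 and with a prior count of 2 (added after the data were seen), both pairs with the row listed as Hspb1.

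Signs turned only where no test was passed, here for values near 0 and below for Dnajb5-204. Dnajb4-204 had -0.00028 with a minimum of 10 counts per library, -0.059 with the added covariate, and -0.054 to 0.12 when 1 library was left out. Dnajb5-203 against Dnajb5-204 had -0.15 to 0.16, and Dnajb4-202 against Dnajb5-201 -0.051 to 0.0090, when 1 library was left out. The cause was not tested.

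Same-numbered libraries deviated in opposite directions (correlations of -0.55, -0.59 and -0.66). Their scores on the first principal component were of opposite sign too, -31.6 and 25.9, 27.2 and -25.4, and -30.9 and 41.8 (NSD and SD replicates 2, 3 and 4). These correlations therefore cannot tell whether the numbers pair the libraries. With the replicate block over the 6 libraries of shared number, 6 transcripts passed, against 3 in the same 6 libraries without it, and 0 member rows in both. Dnajb5-204 then had a log2 fold change of 0.10 with the block and 0.093 without it.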
